A study of Homo sapiens with 32 samples.

Results

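Collagen hydroxylases and lysyl oxidases are the enzymes that finish a collagen molecule and then link it to its neighbours. The 10 genes described here were chosen by their symbols and by the class protein_coding in the deposited count tables. P4HA1, P4HA2, P4HA3 and P4HB encode subunits of prolyl 4-hydroxylase, PLOD1, PLOD2 and PLOD3 encode lysyl hydroxylases, and LOX, LOXL2 and LOXL4 encode lysyl oxidases. All 10 were found in both tables, among 19815 protein-coding genes and 60554 annotated genes.

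The expression of these genes was measured by RNA-Seq in human breast cell lines. MCF10A is known as a non-tumourigenic epithelial line and MDA-MB-231 is a line from a triple-negative breast carcinoma. Cells were kept for 24 hours in normoxia (N) or at 0.5% O2 (H), and some cultures received 2.5 µM of the mTOR kinase inhibitor PP242 for 3 hours, either normoxic (NPP) or hypoxic (HPP). Total mRNA (T) and mRNA bound to polysomes on a sucrose gradient (P) were sequenced from each condition, with 2 biological replicates per group and 32 libraries in all. The labels name no transgene or deletion, and each line is a single established line grown in culture.

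Prolyl 4-hydroxylase converts prolines of newly made collagen chains into 4-hydroxyproline, which keeps the collagen helix stable at body temperature. Lysyl hydroxylases modify lysines of the same chains in the endoplasmic reticulum, and lysyl oxidases act outside the cell, where they oxidise lysines and hydroxylysines so that collagen and elastin fibres become crosslinked. The hydroxylases use molecular oxygen as a substrate, the lysyl oxidases are copper enzymes that also consume oxygen, and several of these genes are known targets of the hypoxia-inducible factors (HIF), whose binding sites share a short core sequence.

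Promoter windows with the letters ACGTG, one form of that core, are shown for the 3 members that held them, P4HA1, PLOD2 and LOX. RefSeq (GRCh38.p14) held an entry of 300 bases, from 250 before to 50 after the start site, for 8 of the 10 genes, and P4HA3 and LOXL2 were not matched. LOX had 3 entries, of which the one at the start of its canonical transcript was used. The letters ACGTG were searched on both strands. They occurred at 1 place in the P4HA1 promoter, at 2 places in that of PLOD2 and at 4 places in that of LOX, and at 0 places in those of P4HA2, P4HB, PLOD1, PLOD3 and LOXL4. The P4HA2 entry lies 762 bases from the start of the canonical transcript of that gene. Of 34943 promoters of this length, 21.4% held ACGTG at least once and 8.79% held it at 2 or more places. The other form of the core, GCGTG, occurred at 1 place in P4HB, 2 in PLOD1 and 1 in PLOD2, and 36.5% of all promoters held it, but these windows are not printed. P4HA2 and PLOD1, with 0 matches to ACGTG, also separated by oxygen in both lines. The windows of 29 bases below are written 5′ to 3′ on the strand of the gene, which is the minus strand in each case. The capitals mark the match, and CACGT is the match on the opposite strand.
P4HA1, chr10:73096936-73096964, 86 bases before the start: tgtgatcgagctCACGTagcgagggctgc
PLOD2, chr3:146161368-146161396, 200 bases before the start: cgtgagcctccaCACGTagccgcaggcag
PLOD2, chr3:146161314-146161342, 146 bases before the start: caaacagtccagACGTGgggcccaggagg
LOX, chr5:122078428-122078456, 185 bases before the start: gctccctgtgcaACGTGtctggggggagg
LOX, chr5:122078359-122078387, 116 bases before the start: ctgtccgccttgCACGTttccaatcgcat
LOX, chr5:122078341-122078369, 98 bases before the start: tccaatcgcattACGTGaacaaatagctg
LOX, chr5:122078285-122078313, 42 bases before the start: gtaactttgcaaACGTGccagaaagttta
A match describes these letters only, and binding was not measured in these data.

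Library totals ran from 18340916 to 46032327 counts, with a median of 34561484, and every member except P4HA3 in both lines and LOXL4 in MCF10A had at least 163 counts in each library. Levels are given as CPM, the counts scaled to the total of the protein-coding genes tested in a line, so the levels of the members are compared between the lines only in the joint fit given later, and the marker levels below are set side by side on scales that differ between the lines. The oxygen labels were checked with 8 known HIF targets. All 8 were higher in every low-oxygen library than in every normoxic library of MCF10A, and 6 of 8 were in MDA-MB-231, where ADM and VEGFA overlapped. The PP242 labels were checked with 7 mRNAs whose translation depends on mTOR, and all 7 were lower in both polysomal libraries with PP242 than in both without it, in each line and at each oxygen level.

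The identity of the lines was checked with their markers. Of 8 MCF10A markers, 5 were detected in every library labelled MCF10A. These were the basal keratins KRT5 at 1190 to 3268 CPM, KRT14 at 458 to 4203 CPM and KRT17 at 48.5 to 1034 CPM, the integrin ITGB4 at 191.6 to 1155 CPM and the cadherin CDH3 at 3.71 to 16.5 CPM. The other 3, CDH1, EPCAM and TP63, stayed at or below 0.461 CPM in all 16 libraries. The same libraries held VIM at 1691 to 9370 CPM, SPARC at 91.7 to 203 CPM, CDH2 at 28.2 to 87.7 CPM and the fibroblast gene DCN at 64.1 to 238 CPM. The other fibroblast markers in these libraries were COL1A1 at 3.62 to 19.2 CPM, PDGFRB at 2.03 to 11.3 CPM, and COL3A1 and LUM at or below 0.0902 CPM. The MDA-MB-231 libraries held VIM at 3113 to 6082 CPM, AXL at 700 to 1053 CPM, EPCAM at 9.86 to 19.1 CPM and KRT5 at or below 0.284 CPM, while SPARC and CDH2, counted here among the markers of this line, stayed at or below 1.53 CPM. The identity check thus went in part against the label MCF10A, with 3 of its 8 markers near 0, SPARC and CDH2 detected here and near 0 in MDA-MB-231, and EPCAM near 0 here and detected in MDA-MB-231. Of the other markers of MDA-MB-231, AXL and ZEB1 lay lower in the MCF10A libraries and CD44 and VIM overlapped, with AXL at 225 to 401 CPM, CD44 at 228 to 579 CPM and ZEB1 at 4.69 to 32.6 CPM in the MCF10A libraries, and CD44 at 540.1 to 903 CPM and ZEB1 at 43.6 to 88.2 CPM in those of MDA-MB-231. The name MCF10A is used below for the libraries so labelled, and the part of these markers in the results was not tested.

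The replicates differed more in several MCF10A groups than in the others. The log2 difference between replicates had a standard deviation (SD) over genes of 1.18 in NPP T, 0.875 in HPP T, 0.794 in N P, 0.712 in H P and 0.703 in HPP P, against 0.407 in N T, 0.579 in H T and 0.409 in NPP P. The difference between replicate 2 and replicate 1 fell with each doubling of transcript length by 0.715 (log2) in NPP T, 0.462 in HPP T and 0.273 in H T. It rose by 0.463 in N P, 0.392 in H P and 0.137 in HPP P. PLOD2 had 4041 counts in NPP T replicate 2 against 20702 in replicate 1, and LOX had 396 against 1497. Replicate 2 of NPP T and replicate 2 of HPP T, from the groups with the widest spread, were also left out together. This alternative was chosen after seeing the data, and values without them are given below for counts of calls and some members. All groups of a line share 1 estimate of the spread, so comparisons without NPP T or HPP T change only through that shared fit. NPP T and HPP T then hold 1 library each, so only fold changes are given for them. H T, N P, H P and HPP P were not treated in this way, and each of their libraries was left out singly.

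Hypoxia raised 4 members in each fraction of MCF10A and 5 in each fraction of MDA-MB-231, and lowered 0 in either line. In MCF10A these were P4HA1, P4HA2, LOX and LOXL2, which is 4 of 9 tested in T and in P, where 1.39% and 1.33% of all 13124 tested genes were called higher (edgeR quasi-likelihood test, adjusted p under 0.05). In MDA-MB-231 they were P4HA1, P4HA2, PLOD1, PLOD2 and LOX, again 5 of 9 in both fractions, where 0.977% of 13510 genes were called higher in T and 1.78% in P. The median log2 fold change of the 9 tested members was 1.66 in MCF10A T and 1.32 in MDA-MB-231 T, against −0.03 and −0.02 for all genes. Without the pair of MCF10A libraries, 6 of 9 members were called in each fraction. Of all 13424 genes, 2.21% were then called higher in T and 2.15% in P. PLOD1 (1.50 in T, adjusted p = 0.0233) and PLOD2 (1.98 in T, adjusted p = 0.00541) were added. The pair is in neither H nor N, and with all libraries the values were 1.46 and 1.94. These added calls thus come from a changed shared fit and are no further evidence for the 2 genes. A fit of only the libraries compared called 0 members in MCF10A H P, and 0.048% of all genes. In MDA-MB-231, the calls of PLOD1 and PLOD2 were lost in some fits that left out 1 library, as given below for each gene. DESeq2 called 6 members in T and 5 in P of MCF10A, where it called 2.93% and 2.94% of all genes higher, and 7 and 6 in MDA-MB-231, where it called 1.84% and 2.91%. In these bulk libraries, more mRNA per cell and more cells carrying the mRNA cannot be told apart.

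**Figure D1:**
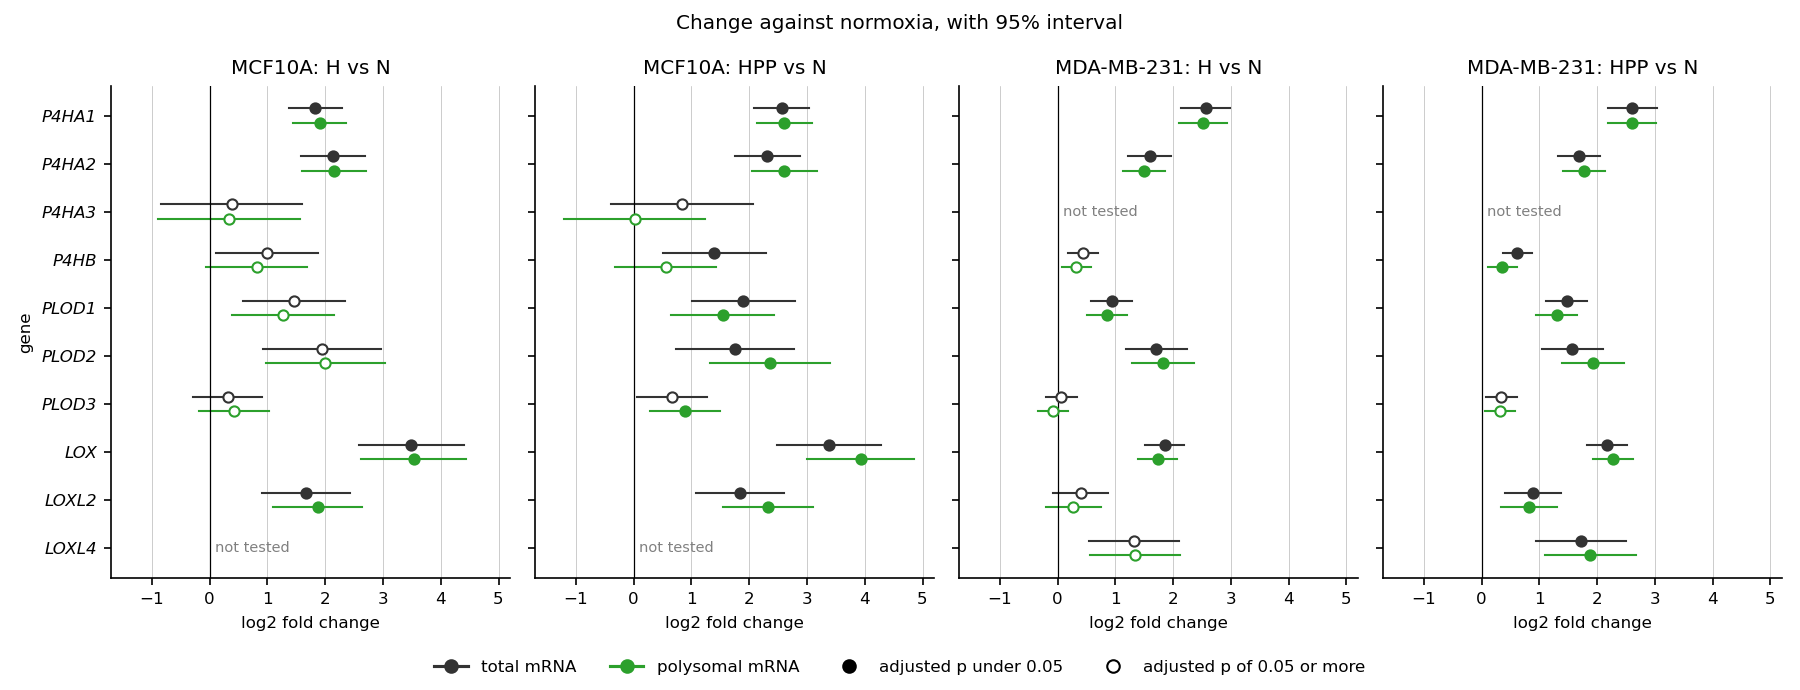
The log2 fold change of each tested member (x axis, with its 95% interval) under H and under HPP against N in both cell lines, with total mRNA in black and polysomal mRNA in green, and filled points for an adjusted p under 0.05. LOX has the highest value in MCF10A, 3.93 in HPP P, and P4HA1 in MDA-MB-231, 2.61 in HPP T, while PLOD3 is the lowest of the members in MDA-MB-231 and P4HA3 has open points only in MCF10A.

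Over all 4 conditions, 5 members had no overlap between the 8 libraries at low oxygen and the 8 normoxic libraries in either line. These were P4HA1, P4HA2, PLOD1, PLOD2 and LOX. LOXL2 was also separated in MCF10A, and P4HB in MDA-MB-231. Over all tested genes, 3.29% lay wholly higher at low oxygen in MCF10A and 2.21% in MDA-MB-231. P4HA3, PLOD3 and LOXL4 overlapped in both lines. LOXL4 in MDA-MB-231 did so by little, with normoxic values up to 17.03 CPM and low-oxygen values from 16.7 CPM. Within each fraction LOXL4 did not overlap there, with 15.1 against 16.7 CPM in T and 17.03 against 17.98 CPM in P.

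The alpha subunits carry the catalytic site of prolyl 4-hydroxylase. P4HA1 lies on chromosome 10 (GRCh38, 73007217 to 73096974, minus strand). In MCF10A T, P4HA1 stood at 40.4 and 50.7 CPM in N, 165 and 158 in H, 51.2 and 49.3 in NPP, and 261 and 277 in HPP. In MCF10A P the values were 40.7 and 50.8 in N, 166 and 176 in H, 57.9 and 63.6 in NPP, and 264 and 293 in HPP. Both normoxic conditions thus lay together and well apart from both low-oxygen conditions. P4HA1 rose in H by 1.83 (log2, SE 0.21, adjusted p = 0.00116) in T and by 1.90 (SE 0.21, adjusted p = 0.000905) in P.

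In MDA-MB-231 T, P4HA1 stood at 40.1 and 33.3 CPM in N, 212 and 222 in H, 45.4 and 33.2 in NPP, and 244 and 204 in HPP. In P it was at 42.5 and 33.8 in N, 247 and 189 in H, 42.4 and 35.1 in NPP, and 231 and 233 in HPP. Again no normoxic library reached a low-oxygen one, while NPP overlapped with N and HPP with H in each fraction. The change in H was 2.56 (SE 0.20, adjusted p = 1.05e-05) in T and 2.52 (SE 0.20, adjusted p = 7.59e-06) in P, or 5.91 and 5.72 times the level in N. P4HA1 ranked 39 of 13510 genes by log2 fold change in MDA-MB-231 H T and 338 of 13124 in MCF10A H T.

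P4HA2, the other widely expressed alpha subunit, lies on chromosome 5 (132190147 to 132295315, minus strand). In MCF10A T it stood at 72.1 and 68.1 CPM in N, 284 and 330 in H, 53.7 and 82.8 in NPP, and 311 and 386 in HPP. In MCF10A P it was at 90.2 and 82.7 in N, 370.0 and 401 in H, 111.6 and 101.8 in NPP, and 485 and 571 in HPP. The low-oxygen values lay above all normoxic values, and the polysomal values in HPP were the highest. P4HA2 rose in H by 2.13 (SE 0.25, adjusted p = 0.00129) in T and 2.16 (SE 0.25, adjusted p = 0.00127) in P.

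In MDA-MB-231 T, P4HA2 stood at 25.0 and 20.9 CPM in N, 70.1 and 68.5 in H, 26.5 and 24.1 in NPP, and 78.5 and 69.1 in HPP. In P it was at 27.7 and 23.0 in N, 80.4 and 61.9 in H, 34.1 and 26.8 in NPP, and 88.7 and 84.3 in HPP. The groups separated by oxygen in the same way. The change in H was 1.59 (SE 0.17, adjusted p = 0.000157) in T and 1.49 (SE 0.17, adjusted p = 0.000275) in P. The calls of P4HA1, P4HA2 and LOX in H were kept in both lines and both fractions when any 1 of the 4 libraries compared was left out.

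P4HA3, the third alpha subunit, on chromosome 11 (74235801 to 74311640, minus strand), was barely detected. It had 26 to 46 counts per MCF10A library, or 0.582 to 1.72 CPM, and 1 to 10 counts per MDA-MB-231 library, which was too few to test there. The normoxic and low-oxygen ranges overlapped in both lines. In MCF10A H T its log2 fold change was 0.38 (SE 0.56, adjusted p = 0.987), with a 95% interval from −0.84 to 1.60. Its exons overlap those of P4HA3-AS1 and PPME1 on the opposite strand. The strand of the libraries is not stated, so its reads could not be separated from theirs. The same limit holds for P4HA1, P4HA2, P4HB, PLOD3, LOX, LOXL2 and LOXL4, whose exons also overlap those of genes on the opposite strand. For PLOD1 and PLOD2 no such gene was found.

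P4HB encodes the beta subunit, which is also protein disulphide isomerase, and lies on chromosome 17 (81843159 to 81860856, minus strand). In MCF10A T it stood at 1026 and 1219 CPM in N, 1981 and 2488 in H, 969.5 and 2247 in NPP, and 2120 and 3804 in HPP. In MDA-MB-231 T it was at 619.8 and 627 in N, 868 and 824 in H, 645 and 695 in NPP, and 947 and 967 in HPP. P4HB separated by oxygen in MDA-MB-231. In MCF10A, NPP T replicate 2 (2247 CPM) and N P replicate 1 (2102 CPM) lay above the lowest low-oxygen value, 1981 CPM in H T replicate 1. Within MCF10A P alone the groups did not overlap, with normoxic values up to 2102 CPM and low-oxygen values from 2522 CPM. The change in H was 0.99 (SE 0.40, adjusted p = 0.371) in MCF10A T and 0.44 (SE 0.12, adjusted p = 0.0979) in MDA-MB-231 T, and neither passed. In MCF10A H P it was 0.81 (adjusted p = 0.451).

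In HPP, P4HB rose by 1.40 (SE 0.41, adjusted p = 0.0385) in MCF10A T and by 0.62 (SE 0.12, adjusted p = 0.0043) in MDA-MB-231 T. The MCF10A T value was 0.94 without the pair of doubted libraries, where HPP T held 1 library. The MCF10A T call was kept in 1 of 4 fits that left out 1 library. The values without HPP T replicate 2 were 0.92 and an adjusted p of 0.312. In MCF10A P the change in HPP was 0.56 (adjusted p = 0.345), and it ran from 0.32 without N P replicate 2 to 0.90 without N P replicate 1. In MDA-MB-231 P it was 0.36 (SE 0.12, adjusted p = 0.0474), and that call was lost with any 1 of the 4 libraries left out, with adjusted p up to 0.218.

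Per kilobase of transcript, P4HB was far above the sum of the 3 alpha genes in normoxia. Its CPM per kilobase was 13.6 and 14.8 times that sum in MCF10A N T and 12.6 and 15.3 times in MDA-MB-231 N T. In H T the MCF10A ratios were 6.61 and 7.81 and those of MDA-MB-231 were 3.83 and 3.52, so the ratios in H lay below those in N in both lines. In HPP T they were 5.31 and 8.37, and 3.66 and 4.43.

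PLOD1 hydroxylates lysines in the helical part of collagen and lies on chromosome 1 (11934205 to 11975538, plus strand). In MCF10A T it stood at 147 and 197 CPM in N, 423 and 522 in H, 152 and 353 in NPP, and 465 and 818 in HPP. In MDA-MB-231 T it stood at 52.6 and 48.6 in N, 108.1 and 85.8 in H, 66.0 and 64.2 in NPP, and 133 and 149 in HPP. In P it was at 260.0 and 228 in MCF10A N, 485 and 694 in H, 221 and 202 in NPP, and 609 and 809 in HPP. Every low-oxygen library was above every normoxic one in both lines, and the highest normoxic MCF10A value was that of NPP T replicate 2. The change in H was 1.46 (SE 0.40, adjusted p = 0.129) in MCF10A T and 0.94 (SE 0.16, adjusted p = 0.00989) in MDA-MB-231 T. It was 1.27 (SE 0.40, adjusted p = 0.178) in MCF10A P and 0.85 (SE 0.16, adjusted p = 0.0129) in MDA-MB-231 P. In each MDA-MB-231 fraction the call was kept in 1 of 4 fits that left out 1 library, with adjusted p up to 0.127 in T and 0.125 in P.

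PLOD2 hydroxylates lysines of the collagen telopeptides, the sites from which the stable crosslinks of fibrotic tissue start, and lies on chromosome 3 (146035139 to 146163725, minus strand). In MCF10A T it stood at 588 and 454 CPM in N, 2098 and 1909 in H, 535 and 169 in NPP, and 2175 and 1347 in HPP. In MCF10A P it was at 563 and 571 in N, 1974 and 2571 in H, 753 and 598 in NPP, and 2394 and 3442 in HPP. Per kilobase of transcript, PLOD2 was the most abundant lysyl hydroxylase in every MCF10A total library except NPP T replicate 2, where PLOD1 was higher. Its change in H was 1.94 (SE 0.47, adjusted p = 0.0781) in T and 2.00 (SE 0.47, adjusted p = 0.0649) in P and did not pass. It passed in both fractions without the doubted libraries, with DESeq2, without a filter on low counts and with a replicate block within each fraction. Of the fits that left out 1 library, 0 of 4 called it in either fraction. The adjusted p there reached 0.647 for T and 0.305 for P, while the smallest rise was 1.77 and 1.80.

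In MDA-MB-231 T, PLOD2 stood at 147 and 103.3 CPM in N, 462 and 359 in H, 148 and 97.96 in NPP, and 436 and 309 in HPP. In P it was at 113 and 99.8 in N, 442 and 312 in H, 130 and 110 in NPP, and 428 and 378 in HPP. Replicate 1 was the higher in every one of these groups, and the oxygen groups did not overlap. PLOD2 rose in H by 1.71 (SE 0.25, adjusted p = 0.00213) in T and 1.83 (SE 0.25, adjusted p = 0.00136) in P. Without replicate 2 of the normoxic group the adjusted p was 0.0593 in T and 0.0519 in P.

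PLOD3, which also carries glycosyltransferase activity towards hydroxylysine, lies on chromosome 7 (101205977 to 101218420, minus strand). It ranged from 63.6 to 120 CPM in the normoxic MCF10A libraries and from 82.3 to 157 at low oxygen. The ranges of the MDA-MB-231 libraries, 41.6 to 56.3 and 40.6 to 57.1 CPM, coincided. Its log2 fold change in H T was 0.31 (adjusted p = 0.888, 95% interval −0.30 to 0.91) in MCF10A and 0.07 (adjusted p = 0.892, 95% interval −0.20 to 0.33) in MDA-MB-231. Under HPP it passed in MCF10A P only (0.88, SE 0.28, adjusted p = 0.0411), and that call was kept in 1 of 4 fits that left out 1 library.

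LOX, the founding lysyl oxidase, lies on chromosome 5 (122063195 to 122078413, minus strand). In MCF10A T it stood at 42.5 and 37.4 CPM in N, 464 and 436 in H, 38.7 and 16.6 in NPP, and 511 and 321 in HPP. In MCF10A P it was at 37.2 and 38.7 in N, 347 and 531 in H, 39.4 and 40.4 in NPP, and 478 and 680 in HPP. The lowest low-oxygen value was thus far above the highest normoxic one. LOX rose in H by 3.49 (SE 0.42, adjusted p = 0.00129) in T and 3.53 (SE 0.42, adjusted p = 0.00127) in P, or 11.3 and 11.6 times the level in N, and ranked 80 of 13124 genes in T.

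In MDA-MB-231 T, LOX stood at 24.7 and 29.7 CPM in N, 108.02 and 88.4 in H, 31.2 and 28.97 in NPP, and 130 and 115 in HPP. In P it was at 25.2 and 31.8 in N, 100.3 and 89.98 in H, 34.4 and 32.4 in NPP, and 141 and 135 in HPP. Here too every low-oxygen library lay above every normoxic one, and the HPP values were above those in H. The change in H was 1.85 (SE 0.16, adjusted p = 2.15e-05) in T and 1.74 (SE 0.16, adjusted p = 3.41e-05) in P, or 3.62 and 3.33 times the level in N. Exons of SRFBP1 overlap those of LOX on the opposite strand.

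LOXL2, a lysyl oxidase that also crosslinks collagen IV of basement membranes, stood in MCF10A T at 118 and 126 CPM in N, 369 and 403 in H, 107.5 and 124 in NPP, and 387 and 485 in HPP. In MDA-MB-231 T it stood at 238 and 165 in N, 325 and 207 in H, 283 and 230 in NPP, and 385 and 361 in HPP. In MCF10A P it was at 96.2 and 141 in N, 306 and 559 in H, 202 and 163 in NPP, and 436 and 750 in HPP. The oxygen groups separated in MCF10A, whereas those of MDA-MB-231 overlapped. The change in H T was 1.66 (SE 0.35, adjusted p = 0.0371) in MCF10A and 0.40 (SE 0.22, adjusted p = 0.493) in MDA-MB-231. In MCF10A P it was 1.87 (SE 0.35, adjusted p = 0.022). The MCF10A call was lost in T with any 1 of the 4 libraries left out (adjusted p up to 0.378) and kept in 1 of 4 such fits in P (up to 0.24). LOXL2 shares exonic positions with ENTPD4 on its own strand and with LOXL2-AS1, so part of its reads may belong to them.

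LOXL4, a further lysyl oxidase, on chromosome 10 (98247690 to 98268194, minus strand), was detected at depth in MDA-MB-231 alone. It had 0 to 3 counts in each MCF10A library, too few to test, and 163 to 1558 counts in each MDA-MB-231 library. In MDA-MB-231 T it stood at 13.2 and 9.27 CPM in N, 39.3 and 16.7 in H, 15.1 and 11.4 in NPP, and 36.5 and 38.0 in HPP. The replicates disagreed in H, where replicate 1 was near the HPP level and replicate 2 near the normoxic one. The change was 1.32 (SE 0.37, adjusted p = 0.11) in H T and 1.34 (SE 0.36, adjusted p = 0.0714) in H P, and 1.72 (SE 0.37, adjusted p = 0.00819) in HPP T. With 1 library left out, the value in H T ran from 0.55 without H T replicate 1 to 1.84 without H T replicate 2, where alone of 4 fits it passed, and the adjusted p reached 0.498. The value in H P ran from 0.75 without H P replicate 1 to 1.79 without H P replicate 2 and passed in 0 of 4 fits, and the HPP T call was kept in 3 of 4, being lost without N T replicate 2 (adjusted p = 0.0892).

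**Figure D2:**
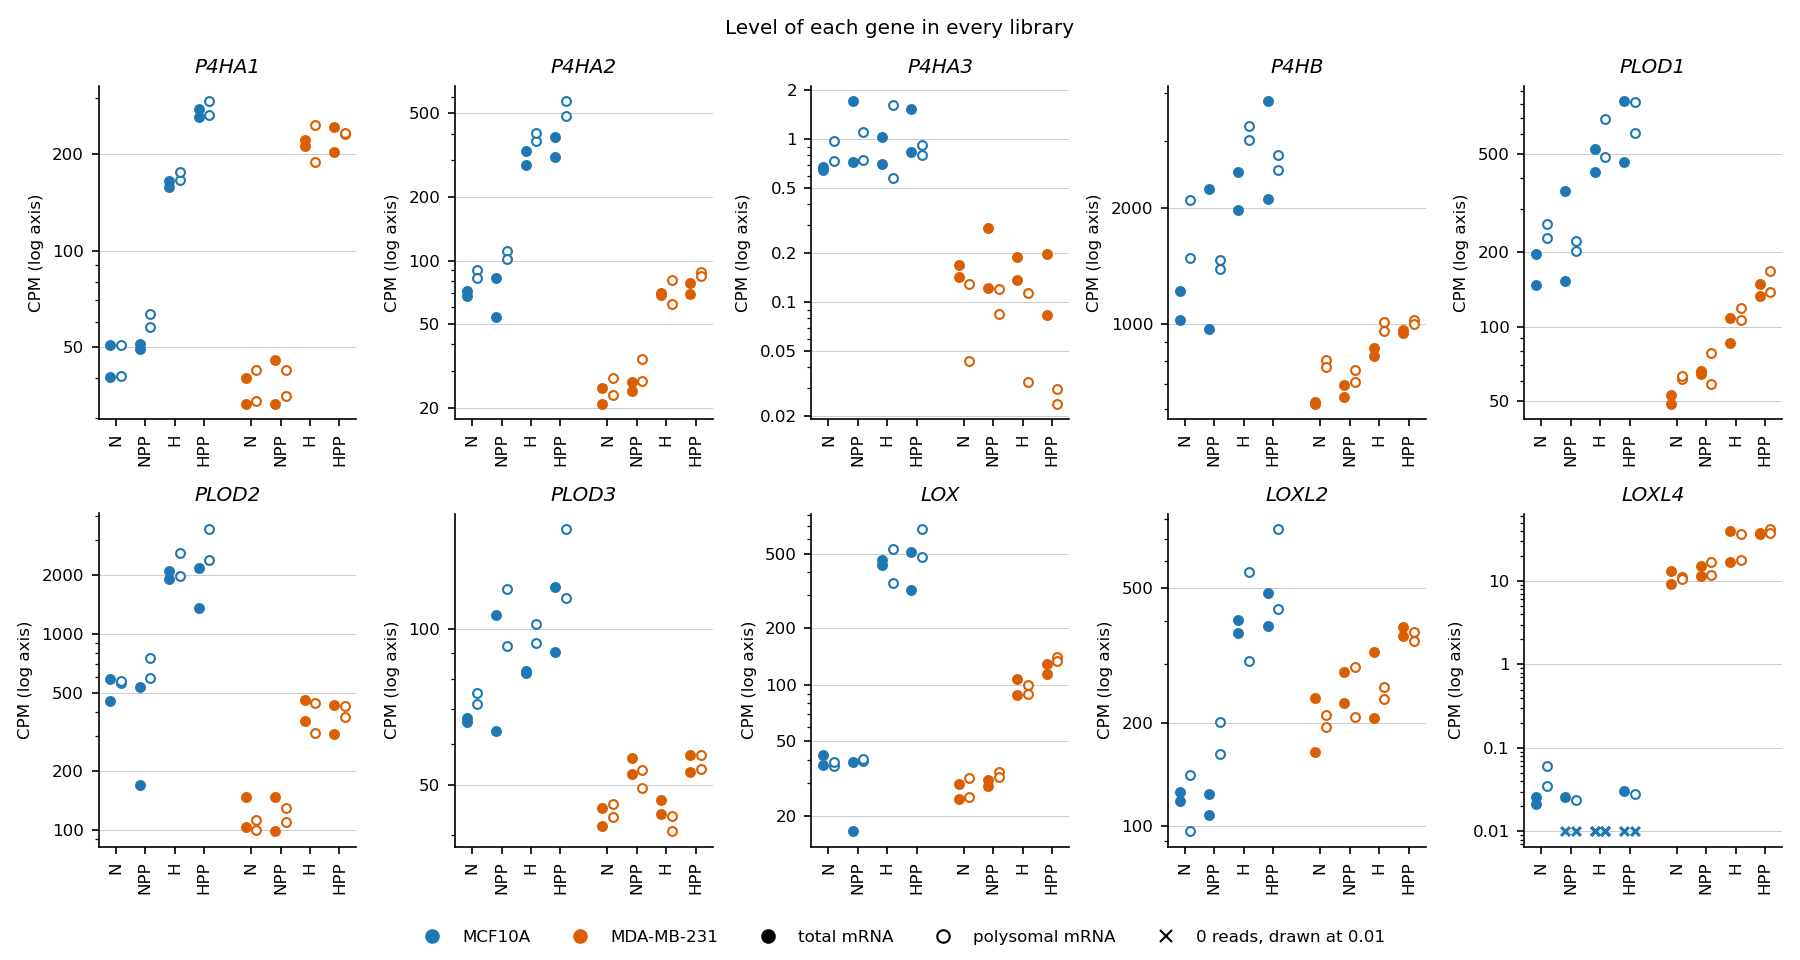
CPM of the 10 members on a log axis in all 32 libraries by line and condition, with total mRNA as filled and polysomal mRNA as open points, and crosses for libraries with 0 counts, drawn at 0.01. The H and HPP points of P4HA1, P4HA2, PLOD1, PLOD2 and LOX lie above the N and NPP points in both lines, the PLOD3 points overlap between the oxygen groups, and LOXL4 is absent or nearly so from MCF10A.

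The HPP and H comparisons with N share the same normoxic libraries and are therefore given side by side. In HPP T, 7 of 9 tested members were higher in MCF10A, where 7.43% of all genes were called higher, and 8 of 9 in MDA-MB-231, where 6.31% were. In HPP P, 7 of 9 were higher in MCF10A (10.2% of all genes) and 8 of 9 in MDA-MB-231 (9.71%). P4HA1 rose by 2.56 and 2.61 in T and P of MCF10A and by 2.61 and 2.60 in T and P of MDA-MB-231 (SE 0.20 to 0.22). P4HA2 rose by 2.31 and 2.61 in T and P of MCF10A and by 1.68 and 1.77 in MDA-MB-231. LOX rose by 3.38 and 3.93 in MCF10A and by 2.17 and 2.27 in MDA-MB-231. PLOD2 rose by 1.76 (adjusted p = 0.0263) and 2.36 in MCF10A and by 1.57 and 1.92 in MDA-MB-231, and LOXL2 by 1.84 and 2.32 in MCF10A. The MCF10A T calls of PLOD2 and LOXL2 were each kept in 1 of 4 fits that left out 1 library, with adjusted p up to 0.199 and 0.06001. In MDA-MB-231, PLOD1 rose by 1.48 and 1.30 and LOXL4 by 1.72 and 1.89. In MCF10A, PLOD1 rose in HPP by 1.90 in T and 1.54 in P, and in MDA-MB-231 LOXL2 rose by 0.89 in T and 0.82 in P. PLOD1 kept its call in 1 of 4 fits that left out 1 library in T (adjusted p up to 0.108) and in 1 of 4 in P (up to 0.123). LOXL2 kept it in 1 of 4 in T (up to 0.182) and in 0 of 4 in P (up to 0.126). Neither gene had been called in H in that line, but HPP against H was not called for them either, with 0.44 (adjusted p = 0.699) for PLOD1 in MCF10A T, which turned to −0.04 without the doubted libraries, and 0.49 (adjusted p = 0.258) for LOXL2 in MDA-MB-231 T. Without the pair of doubted libraries, 7 members were called in MCF10A P, where 16.4% of all genes were called higher. That comparison holds neither library of the pair. HPP T then held 1 library, so no count is given for T. With 1 library left out, the MCF10A T calls of PLOD1, PLOD2, LOXL2 and P4HB were lost in most fits. Those of P4HA1, P4HA2 and LOX were kept.

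PP242 in normoxia changed 0 members in either line and either fraction by edgeR, and 0 by DESeq2. The share of all genes called was 0.648% in MCF10A T, 0.823% in MCF10A P, 0.555% in MDA-MB-231 T and 1.95% in MDA-MB-231 P by edgeR, and 2.73%, 5.07%, 1.86% and 3.92% by DESeq2. At an unadjusted p under 0.05, 0 members passed in MCF10A and 2 in MDA-MB-231 T, which were PLOD1 (0.36) and PLOD3 (0.33), against 10.3% of all genes there. P4HA3 had the largest value in MCF10A T, 0.85 (SE 0.56, adjusted p = 0.705). It fell to 0.12 without NPP T replicate 2 and to 0.11 without the doubted pair, where P4HA2 had the largest, −0.39. NPP T held 1 library in both of these fits. PLOD2 in MCF10A T went from −0.57 to 0.03 without that pair, and the sign turned for PLOD1, from 0.55 to −0.18, for P4HB, from 0.52 to −0.22, and for PLOD3, from 0.35 to −0.07. In MCF10A P the largest value was that of LOXL2, 0.62 (SE 0.34, adjusted p = 0.488), which ran from 0.37 without N P replicate 1 to 0.92 without N P replicate 2. In MDA-MB-231 P it was that of LOXL4, 0.43 (SE 0.36, adjusted p = 0.678), which ran from 0.15 without NPP P replicate 1 to 0.66 without NPP P replicate 2. The 95% interval of PLOD2 in MCF10A T, with all libraries, ran from −1.56 to 0.43.

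PP242 in hypoxia (HPP against H) changed 2 of 9 members in MDA-MB-231 P, where 11.5% of all genes were called, and 0 in MDA-MB-231 T (3.78%), MCF10A T (3.74%) and MCF10A P (6.5%). LOX was higher by 0.54 (SE 0.15, adjusted p = 0.0351) and PLOD3 by 0.40 (SE 0.12, adjusted p = 0.0482). Both calls were lost with any 1 of the 4 libraries left out, with adjusted p up to 0.206 for LOX and 0.286 for PLOD3. With a replicate block 4 members were called in MDA-MB-231 P, LOXL2 (0.55, adjusted p = 0.0275) among them, and 1 in T, PLOD1 (0.55, adjusted p = 0.0339), where 16.5% and 7.0% of all genes were then called. P4HA1 was the member with the largest value in MCF10A, 0.73 (SE 0.21, adjusted p = 0.0758) in T and 0.70 (SE 0.21, adjusted p = 0.0666) in P. It was the one member there at an unadjusted p under 0.05 and the one called by DESeq2, in each fraction. Of all genes, 15.8% in T and 21.0% in P had such a p, and DESeq2 called 1045 and 1578 of 13124. With a replicate block within each fraction it passed in T (adjusted p = 0.0319) and in P (adjusted p = 0.0262), as did 8.79% and 14.9% of all genes. In MDA-MB-231 T, 3 members reached an unadjusted p under 0.05, as did 18.5% of all genes, and 1 was called by DESeq2, which called 7.18% of all genes. The largest value was that of PLOD1, 0.54 (SE 0.16, adjusted p = 0.0806).

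The effect of low oxygen was also read in the presence of PP242 (HPP against NPP). In MCF10A, 5 of 9 members were called in T (4.17% of all genes) and 6 in P (7.44%), and in MDA-MB-231, 7 of 9 in T (2.72%) and 7 in P (3.55%). Without the pair of doubted libraries, 7 members were called in MCF10A P, with 12.9% of all genes. The P comparison holds neither library of the pair. HPP T and NPP T then held 1 MCF10A library each, so only fold changes are given for T. PLOD2 was at 2.05 and LOXL2 at 1.88 in T, against 2.32 and 1.91 with all libraries. A fit of only the libraries compared called 0 in MCF10A T, and 0.0% of all genes. Some calls of HPP against NPP were lost with 1 library left out, as given below for each gene. LOX rose by 3.91 (SE 0.42) in MCF10A T and 2.02 (SE 0.16) in MDA-MB-231 T, and P4HA1 by 2.42 (SE 0.22) and 2.51 (SE 0.20). In P the same genes rose by 3.86 and 2.05, and by 2.198 and 2.58. P4HA2 rose by 2.35 and 2.31 in T and P of MCF10A and by 1.54 and 1.51 in MDA-MB-231, and PLOD2 by 2.32 and 2.11, and by 1.60 and 1.75. LOXL2 rose in MCF10A by 1.91 and 1.70, and PLOD1 by 1.75 in MCF10A P and by 1.11 and 1.16 in MDA-MB-231. LOXL4 (1.49 and 1.46) and P4HB (0.51 and 0.46) rose in MDA-MB-231, and these calls were lost with any 1 of the 4 libraries left out, as was that of PLOD1 in MCF10A P. In MCF10A the call of PLOD2 was kept in 2 of 4 such fits in T (adjusted p up to 0.0978) and 1 of 4 in P (up to 0.173), and that of LOXL2 in 2 of 4 in T (up to 0.105) and 1 of 4 in P (up to 0.14). In MDA-MB-231 T the call of PLOD2 was kept in 2 of 4 (up to 0.0677). The interaction of hypoxia and PP242, which asks whether the combined effect differs from the sum of both, was called for 0 members in 4 of 4 comparisons by edgeR and by DESeq2, with 0 at an unadjusted p under 0.05. Of all genes, 0.0% were called in either MCF10A fraction and 0.0074% in each MDA-MB-231 fraction by edgeR. DESeq2 called 0.0457% in T and 0.145% in P of MCF10A, and 0.0148% and 0.118% in MDA-MB-231. The largest member value was 0.59 for P4HA1 in MCF10A T, with a 95% interval from −0.04 to 1.22.

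Polysomal and total mRNA were compared to see whether any member was translated more or less than its mRNA level. The difference between the log2 fold changes in P and in T (Te) was called for 0 of 9 members in H, NPP and HPP of both lines by edgeR and by DESeq2, and 0 reached an unadjusted p under 0.05. The T and P libraries of a treatment and replicate carry the same sample number in the labels and were taken to come from 1 culture, while the test above treated them as separate. With the culture as a block, 0 members were called as well. Of all genes, 0.0% were called in the 3 MCF10A comparisons, and 0.0148%, 0.34% and 0.696% in H, NPP and HPP of MDA-MB-231 by edgeR. By DESeq2 the shares in the same order were 0.0%, 0.716% and 1.07% for MCF10A and 0.0148%, 0.785% and 1.07% for MDA-MB-231. In H the member values ran from −0.18 to 0.20 in MCF10A and from −0.15 to 0.12 in MDA-MB-231. The highest MCF10A value was that of LOXL2, whose sign turned to −0.30 without H P replicate 2 and to −0.04 without N P replicate 1. In NPP they ran from −0.84 (P4HB) to 0.82 (PLOD2) in MCF10A, or from −0.14 (P4HB) to 0.77 (LOXL2) without the doubted libraries, where PLOD2 was at 0.19, and from −0.23 (PLOD1) to 0.20 (PLOD2) in MDA-MB-231. With 1 library left out, P4HB in MCF10A ran from −1.32 to −0.12, and PLOD1 in MDA-MB-231 from −0.45 without NPP P replicate 1 to −0.04 without NPP P replicate 2. In HPP they ran from −0.84 (P4HB) to 0.61 (PLOD2) in MCF10A, or from −0.33 (P4HB) to 0.69 (LOXL2) without the doubted libraries, and from −0.26 (P4HB) to 0.36 (PLOD2) in MDA-MB-231. With 1 library left out, P4HB ran from −1.23 to −0.30 in MCF10A, and PLOD2 in MDA-MB-231 from 0.065 without N T replicate 1 to 0.61 without HPP T replicate 1. The intervals for all members and treatments lay between −2.54 and 2.22 in MCF10A and between −1.06 and 1.30 in MDA-MB-231.

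**Figure D3:**
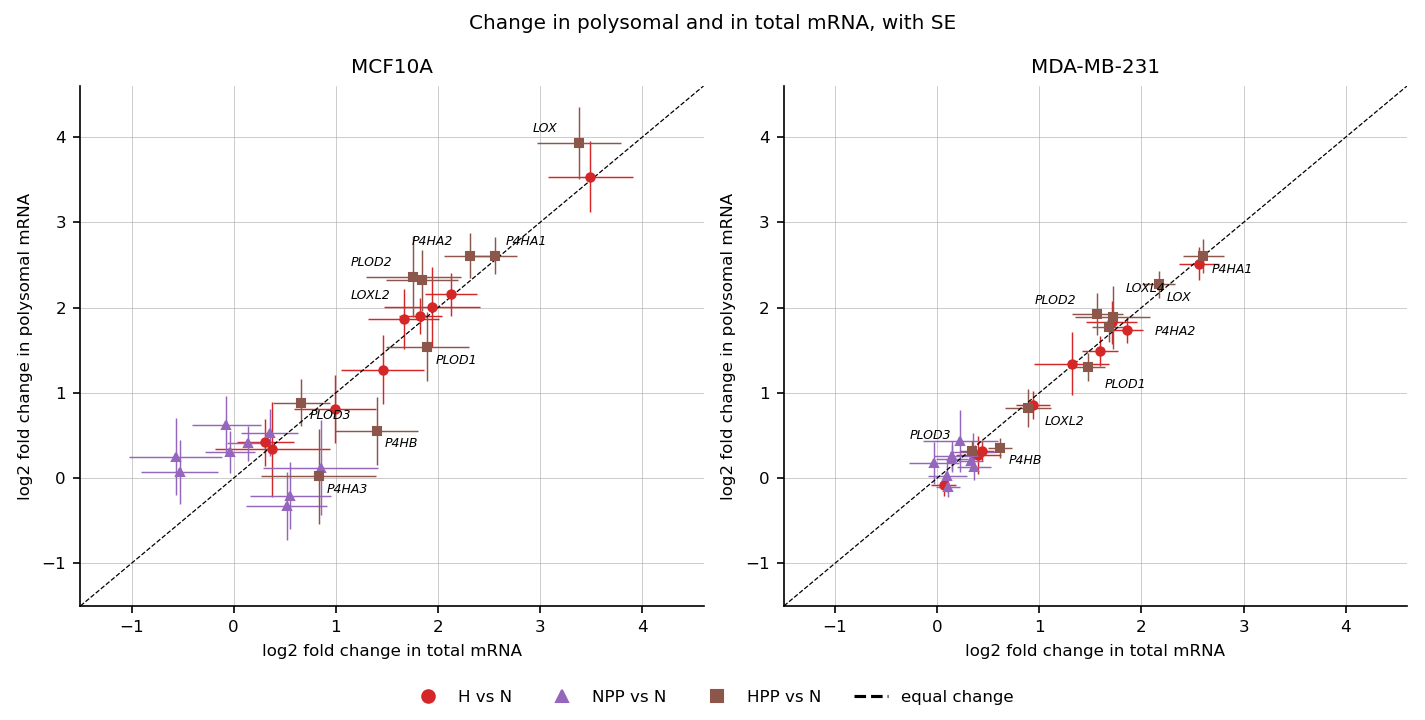
The log2 fold change in polysomal mRNA (y axis) against that in total mRNA (x axis) for each tested member under H, NPP and HPP against N, with bars of 1 SE and a dashed line of equal change. In H the members of both lines lie along the line, from near 0 to 3.49 and 3.53 for LOX in MCF10A, and in NPP they run from −0.57 for PLOD2 to 0.85 for P4HA3, both in MCF10A T, with 0 called.

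In normoxia, P against T was called for 0 of 9 members in MCF10A, where 0.0% of all genes were called, and for 0 of 9 in MDA-MB-231, where 13.1% were. P4HB had the largest value in both lines, 0.68 (SE 0.40, adjusted p = 0.51) in MCF10A and 0.34 (SE 0.12, adjusted p = 0.0685) in MDA-MB-231. The MCF10A value ran from 0.32 without N P replicate 1 to 0.91 without N P replicate 2. P4HB was the 1 member in MDA-MB-231 at an unadjusted p under 0.05, as were 29.3% of all genes, and DESeq2 called 1 there and 18.5% of all genes, while both member counts were 0 in MCF10A. With the culture as a block the MDA-MB-231 value of P4HB had an adjusted p of 0.123. With a replicate block within each fraction P4HB was called in each line, beside 16.7% (MCF10A) and 21.9% (MDA-MB-231) of all genes. That block takes the replicate spread out of the error of a comparison between fractions, so these calls decide nothing here.

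The lines differed in the normoxic level of 7 of the 8 members tested in both lines in total mRNA. In this joint fit 40.7% of all 14298 genes, and 36.5% of the 12374 tested in both lines, were called. The lines also carry separate series of barcodes in the labels. In the paper, MCF10A alone was grown with EGF, hydrocortisone, cholera toxin and insulin. In every comparison of the lines these differences cannot be told apart from the line itself. P4HA1 was lower in MDA-MB-231 by 0.78 on the log2 scale (95% interval of the difference −1.21 to −0.34, adjusted p = 0.0054). Lower as well were P4HA2 (−2.08, SE 0.23), P4HB (−1.32, SE 0.31), PLOD1 (−2.23, SE 0.34), PLOD2 (−2.52, SE 0.41), PLOD3 (−1.09, SE 0.22) and LOX (−1.02, SE 0.30). LOXL2 was not called (0.26, SE 0.32, adjusted p = 0.549), and its value turned to −0.074 without MDA-MB-231 N T replicate 1. The calls of P4HA1 and LOX were each kept in 2 of 4 fits that left out 1 library, with adjusted p up to 0.083 and 0.0743.

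P4HA3 and LOXL4 entered the joint fit only through the line in which they were higher, so their line differences are given as a description, with no test. For LOXL4 the normoxic T libraries held 531 counts in MDA-MB-231 and 2 in MCF10A, a ratio of 501 after scaling, with a 95% counting interval from 138 to 4145. In P the counts were 578 and 4, a ratio of 210.4 (interval 81.7 to 774.9). For P4HA3 the T counts were 7 and 57, a ratio of 0.232 (interval 0.0891 to 0.509), and in P 5 and 65, a ratio of 0.112 (interval 0.0352 to 0.275). These intervals cover counting error only.

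The size of the oxygen response was compared between the lines by the difference of their log2 fold changes (MDA-MB-231 minus MCF10A). It was called for 0 of the 8 members tested in both lines in H T (0.266% of all genes), H P (0.329%) and HPP T (3.31%), and for 1 in HPP P (3.6%). In the same order, 3, 3, 1 and 3 of these had an unadjusted p under 0.05, as had 7.47%, 6.49%, 15.4% and 16.7% of all genes. DESeq2 called 1, 2, 1 and 2 members, and 0.888%, 0.902%, 5.22% and 6.5% of all genes. The member called in HPP P was LOX, with −1.69 (SE 0.42, adjusted p = 0.0272). That call was kept in 1 of 8 fits that left out 1 library (adjusted p up to 0.174) and lost in a fit of only the libraries compared, which called 0.54% of all genes. With a replicate block within each fraction 1, 2, 0 and 3 members were called, beside 0.713%, 0.986%, 7.41% and 9.23% of all genes. These were LOX in H T, LOX and LOXL2 in H P, and LOX, LOXL2 and P4HA2 in HPP P. Its values in the other comparisons were −1.59 (SE 0.42, adjusted p = 0.159) in H T, −1.89 (SE 0.42, adjusted p = 0.0608) in H P and −1.11 (SE 0.42, adjusted p = 0.178) in HPP T, all with the smaller rise in MDA-MB-231. Without the pair of doubted MCF10A libraries the values of LOX ran from −1.87 to −1.48 over the 4 comparisons. LOX was then called in H T, H P and HPP P, where 0.65%, 0.59% and 6.73% of all genes were called. These comparisons hold neither library of the pair, so the shared fit changed and not the data compared. HPP T then held 1 MCF10A library, so no call is given for it. In HPP P, P4HA2 (−0.97, adjusted p = 0.0261) and LOXL2 (−1.63, adjusted p = 0.0336) were then called as well. P4HA1 showed the opposite sign in H T, 0.78 (SE 0.30, adjusted p = 0.472), and no member other than those named passed. P4HA3 and LOXL4 are left out of these counts, since each had too few reads in 1 line.

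**Figure D4:**
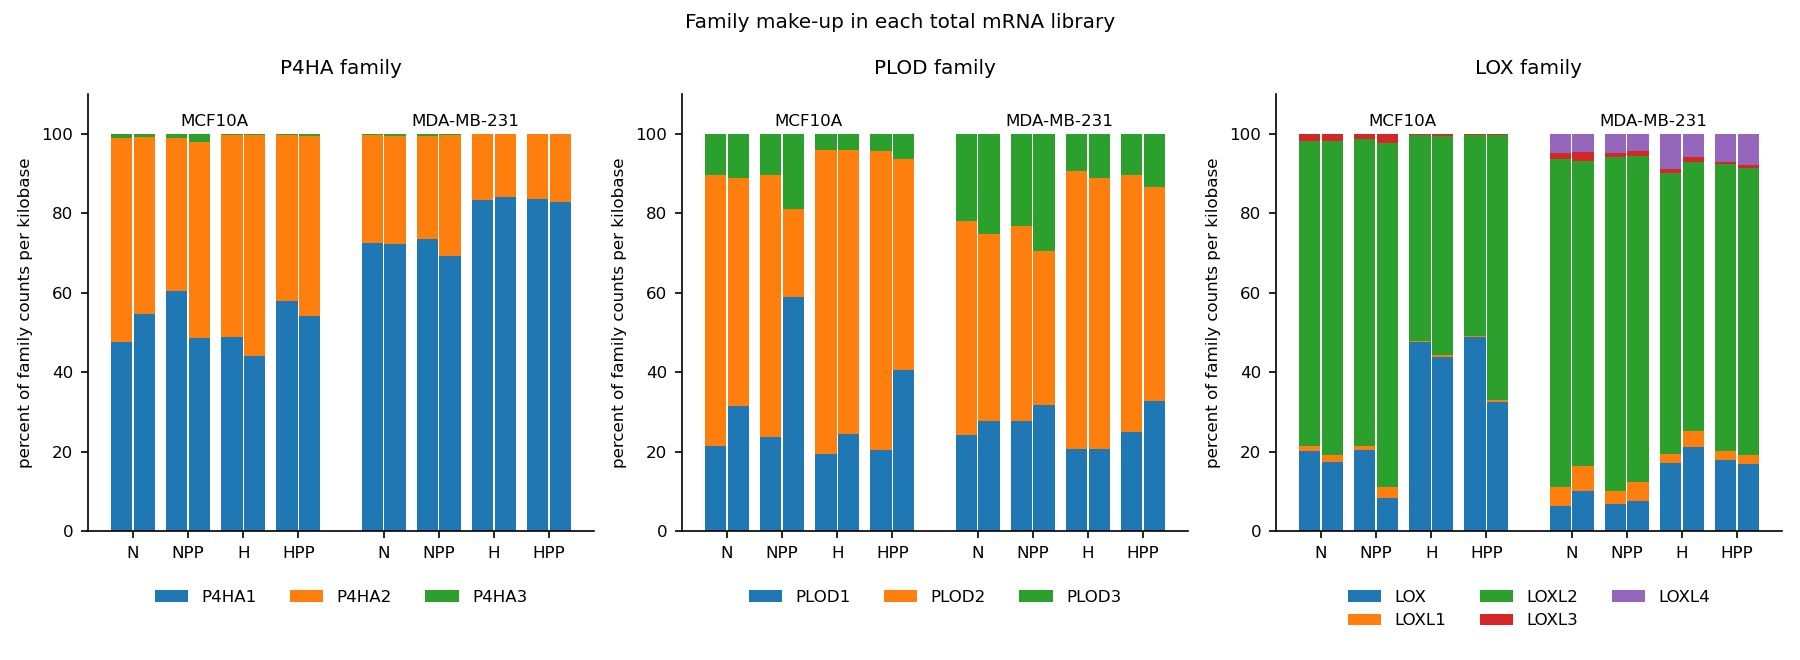
The share of each gene in its family's summed CPM per kilobase of transcript (y axis, percent) in every total mRNA library by line and condition, for the P4HA, PLOD and lysyl oxidase families. P4HA1 holds 51.2% of its family in MCF10A N and 46.5% in H, and 72.3% in MDA-MB-231 N and 83.8% in H, and LOX takes a larger share of its family in H than in N in both lines.

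Per kilobase of transcript, the makeup of each family was compared across conditions in total mRNA, as the mean of 2 libraries with the SD. Of the alpha subunits, P4HA1 made up 51.2% ± 5.00 in MCF10A N and 46.5% ± 3.45 in H, which overlapped. In MDA-MB-231 it made up 72.3% ± 0.177 in N and 83.8% ± 0.66 in H, with no overlap. PLOD2 made up 62.8% ± 7.58 of the lysyl hydroxylases in MCF10A N and 73.9% ± 3.68 in H, and 50.5% ± 4.86 in MDA-MB-231 N and 69.2% ± 1.17 in H. PLOD3, whose own level was not called as changed in H, went from 10.7% ± 0.551 to 4.05% ± 0.0432 in MCF10A and from 23.5% ± 2.31 to 10.2% ± 1.21 in MDA-MB-231.

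In the lysyl oxidase family, counted with LOXL1 and LOXL3, LOXL2 was the most abundant gene in normoxia, at 78.0% ± 1.70 in MCF10A and 79.7% ± 4.28 in MDA-MB-231. LOX made up 18.8% ± 2.12 in MCF10A N and 45.7% ± 2.74 in H. In MDA-MB-231 it made up 8.22% ± 2.72 in N and 19.2% ± 2.80 in H. LOXL4 made up 4.604% ± 0.202 in MDA-MB-231 N and 7.26% ± 2.26 in H. These shares are descriptions of 2 libraries each and were not tested.

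In the normoxic total libraries, the order of the members by CPM per kilobase in MCF10A was P4HB (461 ± 56.1), PLOD2 (139 ± 25.3), PLOD1 (57.8 ± 11.9), LOXL2 (32.7 ± 1.47), PLOD3 (23.6 ± 0.248), P4HA1 (16.6 ± 2.66), P4HA2 (15.4 ± 0.617) and LOX (7.87 ± 0.704), with P4HA3 and LOXL4 below 1. P4HA1 and P4HA2 overlapped, and no other neighbours in this order did. In MDA-MB-231 the order was P4HB (256 ± 1.98), LOXL2 (54.1 ± 13.9), PLOD2 (33.4 ± 8.30), PLOD1 (17.01 ± 0.956), PLOD3 (15.3 ± 0.86), P4HA1 (13.4 ± 1.77), LOX (5.36 ± 0.698), P4HA2 (5.04 ± 0.639), LOXL4 (3.12 ± 0.774) and P4HA3 (0.0696 ± 0.00848). There LOX and P4HA2 were the only neighbours whose libraries overlapped.

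Other genes of collagen production were taken from 3 lists, of which at most 2 genes each were called in H T in a line, and more in HPP P, as was the case over all genes. Of 24 genes of collagen maturation, which fold, glycosylate and chaperone the chains in the endoplasmic reticulum, 1 rose in H T in each line and 0 fell, against 1.39% of all genes higher in MCF10A and 0.977% in MDA-MB-231. That gene was ERO1A, the oxidase that reoxidises protein disulphide isomerase, with 1.56 (SE 0.32, adjusted p = 0.0315) in MCF10A and 0.58 (SE 0.13, adjusted p = 0.047) in MDA-MB-231. The medians of the list were 0.13 and 0.10. In HPP P, 5 rose and 1 fell in MCF10A, where 10.2% of all genes were called higher and 11.9% lower, and 4 rose and 1 fell in MDA-MB-231, where 9.71% were higher and 9.73% lower. The one that fell was in both lines CRTAP, a partner of prolyl 3-hydroxylase, by 1.66 (SE 0.32) and by 1.23 (SE 0.12) on the log2 scale. PDIA3 (0.91) and the chaperone HSP90B1 (1.10) were among those that rose in MCF10A HPP P.

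Of 22 genes of extracellular processing, 18 were tested in each line. In H T 2 rose in MCF10A, the procollagen proteinase enhancer PCOLCE2 (2.65, SE 0.31, adjusted p = 0.00129) and the elastic fibre protein EFEMP2 (2.61, SE 0.46, adjusted p = 0.015), and 0 in MDA-MB-231, beside 1.39% and 0.977% of all genes. The list medians were 0.78 and 0.08. In HPP P, 8 of 18 rose in MCF10A (10.2% of all genes), among them POSTN (2.32) and LTBP1 (2.49), and 4 of 18 rose in MDA-MB-231 (9.71% of all genes), namely FN1 (1.56), FBN1 (0.99), TGFB1 (0.45) and EFEMP2 (0.82).

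Of 33 collagen chains, 24 were tested in MCF10A and 22 in MDA-MB-231. In H T, COL1A1 rose in MCF10A (1.68, SE 0.29, adjusted p = 0.0121) and COL9A2 fell in MDA-MB-231 (−1.22, SE 0.24, adjusted p = 0.0198), where 1.39% of all genes were higher in MCF10A and 0.289% lower in MDA-MB-231, and 0 others were called. COL1A1 is also one of the 5 fibroblast markers. It stood at 4.95 to 5.72 CPM in MCF10A N T and at 15.0 to 19.2 CPM in H T, whereas DCN, the most abundant of the 5, stood at 64.1 to 91.7 CPM and 70.8 to 106.1 CPM. The list medians in H T were 0.28 and 0.17, below those of the members. In HPP P, 6 of 24 chains rose in MCF10A (10.2% of all genes), with COL13A1 (2.39) and COL17A1 (1.75) among them. Of 22 in MDA-MB-231, 4 rose (9.71% of all genes) and 1 fell (9.73%), with COL4A4 at 1.69 and COL27A1 at 1.10.

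**Figure D5:**
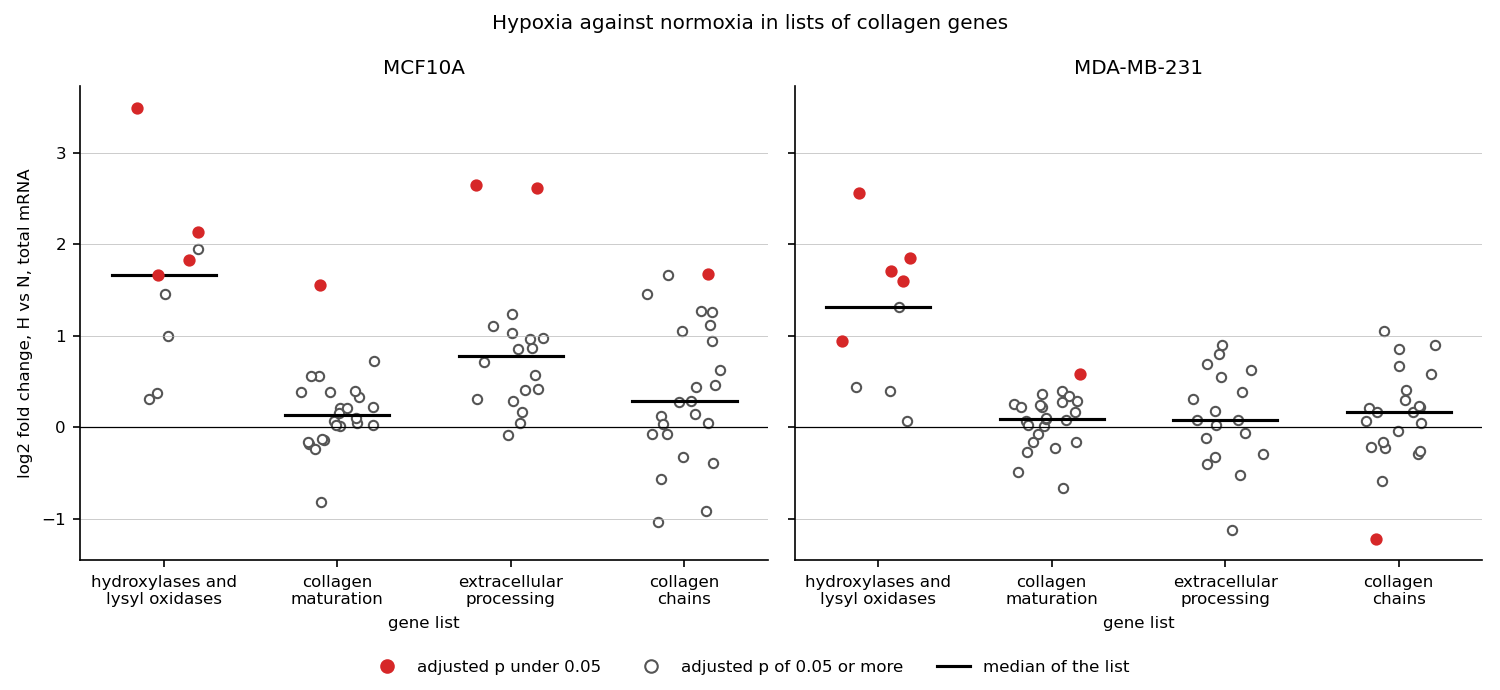
The log2 fold change of H against N in total mRNA (y axis) for every tested gene of the members and of the lists of collagen maturation, extracellular processing and collagen chains in each line, with red points for an adjusted p under 0.05 and a bar at each median. The members have medians of 1.66 (MCF10A) and 1.32 (MDA-MB-231), and those of the other lists run from 0.08 to 0.78.

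The genes whose pattern was most like that of P4HA1, P4HA2 and LOX were sought by Pearson's r of log2 CPM over the 32 libraries, centred within each line, among 12339 genes tested in both lines under a unique symbol. For P4HA1 they were CA9 (0.963), NDRG1 (0.962) and BNIP3 (0.956). For P4HA2 they were PGK1 (0.987), CA9 (0.981) and ALDOC (0.980). For LOX they were TMEM45A (0.967), KIAA1715 (0.962) and BNIP3L (0.962). Among the 8 members tested in both lines, which leaves out P4HA3 and LOXL4, P4HA2 and LOX were the most alike (r = 0.953), then PLOD2 and LOX (0.949), and PLOD2 and PLOD3 the least (0.354). The points share libraries, oxygen groups and depth, so these values describe the libraries and carry no test.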

How the data were processed

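RNA-Seq of total and polysomal mRNA from 32 libraries was analysed. The authors sequenced 2 × 76 bp reads of TruSeq RNA v2 libraries, mapped them to GRCh38 with STAR 2.5.1b and GENCODE v24, and deposited RSEM 1.2.28 expected counts per gene without normalisation. The sample labels name GRCh37. Rounding to whole numbers changed 0 values, and 0 columns lacked a sample.

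Protein-coding counts were tested by the edgeR 4.0.16 (R 4.3.3, limma 3.58.1) quasi-likelihood F test, with TMM, filterByExpr and 16 libraries in 8 groups per line, or 32 libraries for differences between lines. The p-values were adjusted by Benjamini-Hochberg over all tested genes, and a gene was called at an adjusted p under 0.05. The SE is the absolute log2 fold change divided by the square root of F. The common biological coefficient of variation came to 0.325 (MCF10A) and 0.15 (MDA-MB-231). Permutation tests were not used, since 2 against 2 libraries cannot give a two-sided p below 0.333. The T and P libraries of a treatment and replicate carry the same sample number in the labels, read as 1 culture, and entered the fits as separate libraries. Nothing in the labels says that the replicates came from different frozen stocks, so the p-values measure the spread between these cultures.

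CPM used the TMM-scaled total of tested genes within a line. Transcript lengths, loci and exon overlaps came from GENCODE v44 (GRCh38), with a length for 10 of 10 members, and promoters from RefSeq. Figures were drawn with matplotlib 3.10.9.

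The members, the other lists and the tests were chosen with earlier results of these data known. All 10 members are named. Fold changes are given for called pairs, some without SE, and for the largest uncalled value of most comparisons, with the uncalled values in H T and some others. At most 4 genes of another list are named per comparison, by adjusted p. Alternatives were DESeq2 1.42.0, its size factors in edgeR, no filter, all gene classes, a log2 fold change of at least 1, only the libraries compared, replicate blocks, each library left out, and, added after seeing the data, 2 MCF10A libraries left out together.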

Additional observations from a re-analysis of the deposited data

Results flagged for a closer look

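The response of LOX to HPP in polysomal mRNA differed between the lines by −1.69 on the log2 scale (MDA-MB-231 minus MCF10A, SE 0.42, adjusted p = 0.0272, edgeR quasi-likelihood test of the difference). LOX rose by 3.93 in MCF10A, from 37.2 and 38.7 CPM in N to 478 and 680 in HPP, and by 2.27 in MDA-MB-231, from 25.2 and 31.8 to 141 and 135 CPM. The call was kept in 1 of 8 fits that left out 1 library, where the difference ran from −1.95 to −1.36 and the adjusted p reached 0.174. Without the 2 doubted MCF10A total libraries it was −1.79 (adjusted p = 0.00127). This comparison is of polysomal libraries and holds neither of them, so that fit is no check of the call. The lines also differ in medium and barcode series, which cannot be told apart from the line.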

How the results depend on the processing

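Some counts of members called moved by over 1.5 times, in comparisons with many calls as well as with few. With DESeq2's Wald test, 1 was called in HPP against H in MCF10A T, MCF10A P and MDA-MB-231 T, and 1 in P against T in MDA-MB-231 N. The line differences then gave 1 in H T, 2 in H P, 1 in HPP T and 2 in HPP P. With only the libraries compared, the counts were 0 in MCF10A HPP against NPP T, 0 in MCF10A H P, 1 in the line difference of H T and 0 in that of HPP P. Without a filter, MDA-MB-231 HPP against H T gave 1, and with a log2 fold change of at least 1 HPP against H P gave 0. DESeq2's size factors gave 1 for MDA-MB-231 P against T and 1 for the line difference in H P. All gene classes gave 1 for MDA-MB-231 P against T. For no filter, the fold limit, the size factors and all gene classes, the share of all genes called is not given here. The same holds for the line difference of H T with only the libraries compared. These counts therefore cannot be set against all genes. With the 2 MCF10A libraries left out, the line differences gave 1 in H T, 1 in H P and 3 in HPP P. None of these comparisons holds either of the libraries left out. MCF10A HPP against NPP T then rested on 1 library in each group. The line difference of HPP T rested on 1 MCF10A library in HPP.

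The labels give the T and P libraries of a treatment and replicate the same sample number, read here as 1 culture, but state no day or batch that a replicate number shares across treatments. The log2 differences between replicates correlated by 0.262 to 0.795 among the 4 MCF10A T groups, −0.106 to 0.648 among the P groups and −0.240 to 0.210 between T and P of the same treatment and −0.648 to 0.116 between T and P of different treatments, and by −0.184 to 0.347 in MDA-MB-231. The numbers were therefore not taken as pairs over a whole line, though in MCF10A T all 6 correlations were above 0.1. With a replicate block by culture, the 6 Te comparisons and P against T stayed at 0 members. With a replicate block, MDA-MB-231 HPP against H gave 1 in T and 4 in P. The line differences under this block gave 1 in H P and 2 in HPP P, and the share of all genes is not given here for them. With a replicate block within each fraction, HPP against H gave 1 in each MCF10A fraction, 1 in MDA-MB-231 T and 4 in P. The share of all genes in these MDA-MB-231 fits is not given here. The line differences gave 1 in H T, 2 in H P and 3 in HPP P. P against T gave 1 in each line, but this block takes the replicate spread out of the error of that comparison.

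With 1 library left out at a time, the lone library of a group was assumed to vary like the other groups. The counts of members below are given without the share of all genes called in the same fits. They cannot show whether the members lost calls more than other genes did. The counts in MCF10A were then 3 in H T, 3 to 6 in HPP T, 4 to 5 in HPP against NPP T, 3 to 4 in H P, 5 to 7 in HPP P and 3 to 5 in HPP against NPP P. In MDA-MB-231 they were 3 to 6 in H T, 6 to 8 in HPP T, 0 to 1 in HPP against H T, 4 to 5 in HPP against NPP T, 3 to 5 in H P, 6 in HPP P, 0 in HPP against H P and 5 in HPP against NPP P. The line differences gave 8 in N T, 0 to 1 in H P and 0 to 2 in HPP P, and 0 elsewhere. The 8 include P4HA3 and LOXL4, which carry no test, and are 6 without them. The sign turned for LOXL2 in MCF10A H Te, to −0.04 without N P replicate 1 and −0.30 without H P replicate 2, in a range from −0.30 to 0.58. It also turned for LOXL2 in the line difference of N T, to −0.074 without MDA-MB-231 N T replicate 1, in a range from −0.074 to 0.53. Of 548 single values, 446 kept their side of the threshold, 96 lost it, 3 gained it and 3 turned, and the cause was not tested.

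From plain counts, without division by transcript length, P4HA1 made up 39.1% and 34.5% of its family in MCF10A N and H and 61.4% and 75.7% in MDA-MB-231. PLOD2 made up 78.3% in MCF10A H, 56.8% in MDA-MB-231 N and 74.2% in H. LOX made up 24.1% and 53.5% of its family in MCF10A N and H, and 11.1% and 24.8% in the MDA-MB-231 groups. Depth limits P4HA3 in both lines and LOXL4 in MCF10A.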
